A study of Homo sapiens and Mus musculus with 25 samples.

Results

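The corrected map of dimethylated lysine 4 of histone H3 (H3K4me2) in K562 cells was compared with the list of the antibody it was derived from, Abcam ab7766. The corrected list held 214276 peaks and the ab7766 list 471302, out of 5136089 peaks in the 22 lists used. Both were taken whole, on chromosomes 1 to 22 and X. A base of an ab7766 peak was called kept where a corrected H3K4me2 peak also covered it and dropped where none did, and a corrected base outside every ab7766 peak was called gained. K562 is an established line from a chronic myeloid leukaemia that expresses many erythroid genes, and it was grown in culture without a treatment or genetic change named in the labels. The chromatin was native, and barcoded semi-synthetic nucleosomes of known methylation state were spiked into the nuclei, a form of ChIP-seq called ICeChIP in which recovery of the standards scales the signal. Each antibody is represented by 1 library of the same cell line, and the labels name no separate cultures.

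H3K4 is methylated by the SET1 and MLL complexes. Trimethylation is best known from the start sites of active genes, dimethylation from the flanks of active promoters and from enhancers, and monomethylation from the wider surroundings of both. Antibodies raised against one of these states can also bind the others. The authors computed the corrected lists from 4 libraries, Abcam ab8895 (H3K4me1), ab7766 (H3K4me2), ab12209 and ab8580 (both H3K4me3), per the deposited notes. The other 3 H3K4me2 antibodies did not enter the correction. They were Cell Signaling Technologies 9725 and Thermo Fisher 710796, whose libraries were amplified for 8 cycles like that of ab7766, and EMD Millipore 05-1338, amplified for 12 cycles.

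The correction kept 315.6 Mb of the 1005.9 Mb under ab7766 peaks (31.4%) and dropped 690.4 Mb. Only 4.40 Mb of the corrected list, 1.38% of its length, was gained. With 1 list on each side there is no replicate, so the shares kept are descriptions without a test. The read depth behind a peak list is unknown, so no counting interval was computed, and a region without a listed peak is not shown to lack the modification.

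Promoter sequences of 4 erythroid genes show the outcome at its simplest. All 200 bases of each were under an ab7766 peak, and the correction kept every base of the first 2 and no base of the last 2. All 4 encode transcription factors of red cell development. The sequences run from 250 to 51 bases before the RefSeq start (GRCh38.p14), on the strand of the gene, with each CG dinucleotide in capitals.
TAL1, kept, chr1:47232386-47232585, minus strand: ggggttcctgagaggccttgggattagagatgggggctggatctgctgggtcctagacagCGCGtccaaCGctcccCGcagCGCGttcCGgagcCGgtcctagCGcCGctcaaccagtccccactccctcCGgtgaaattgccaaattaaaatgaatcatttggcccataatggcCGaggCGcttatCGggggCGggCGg
KLF1, kept, chr19:12887252-12887451, minus strand: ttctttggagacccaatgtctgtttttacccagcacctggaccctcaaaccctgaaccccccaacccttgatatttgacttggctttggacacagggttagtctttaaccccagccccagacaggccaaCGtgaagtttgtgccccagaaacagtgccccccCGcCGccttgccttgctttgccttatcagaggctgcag
GATA1, dropped, chrX:48786340-48786539, plus strand: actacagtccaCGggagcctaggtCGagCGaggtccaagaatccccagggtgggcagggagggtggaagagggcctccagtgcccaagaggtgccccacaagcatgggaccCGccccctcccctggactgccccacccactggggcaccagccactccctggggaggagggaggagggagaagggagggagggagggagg
GATA2, dropped, chr3:128493252-128493451, minus strand: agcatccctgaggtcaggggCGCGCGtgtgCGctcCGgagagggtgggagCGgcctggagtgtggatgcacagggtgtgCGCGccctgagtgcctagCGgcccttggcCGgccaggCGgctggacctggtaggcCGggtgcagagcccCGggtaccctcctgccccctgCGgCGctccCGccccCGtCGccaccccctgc
The CG count did not separate the 2 outcomes among these 4 genes. It was 16 at TAL1 and 3 at KLF1, against 4 at GATA1 and 18 at GATA2. The median over all 35116 RefSeq promoters in the same span was 8, and 91.4% held at least 1.

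Away from promoters, a pair of windows shows the GATA motif, whose core AGATAA is the recognition sequence of GATA1 and GATA2. Each window is the 200 bases of its peak with the most matches to AGATAA on either strand, in capitals.
Upstream of the beta-globin genes, kept, chr11:5290502-5290701, plus strand: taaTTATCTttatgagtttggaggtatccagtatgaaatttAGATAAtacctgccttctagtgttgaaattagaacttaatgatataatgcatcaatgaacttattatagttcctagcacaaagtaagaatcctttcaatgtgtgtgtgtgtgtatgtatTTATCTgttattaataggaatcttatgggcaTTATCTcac
GATA1 peak, dropped, chrX:48764411-48764610, plus strand: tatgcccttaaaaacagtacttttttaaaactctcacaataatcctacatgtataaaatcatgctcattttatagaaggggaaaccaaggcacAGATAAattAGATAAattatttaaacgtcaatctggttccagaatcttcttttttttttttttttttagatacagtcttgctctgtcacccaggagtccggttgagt
The first window has 4 matches and lies in a corrected peak upstream of the beta-globin genes, where erythroid enhancers are known. The second has 2 matches and lies in the ab7766 peak over GATA1, in which no base was kept. The motif was about as frequent on kept as on dropped sequence. On either strand it was found in 20.0% of 124018 windows of 300 bases centred on the longest kept stretch of distal ab7766 peaks and in 20.5% of 290205 windows centred on distal peaks that were dropped whole. Among windows at the centres of all distal ab7766 peaks the share was 20.4%, and in the 250 bases before RefSeq starts 9.17%. The corresponding shares for the AP-1 motif TGACTCA were 5.84% and 5.38%, and for the E-box CACGTG 3.56% and 3.24%. At promoter peaks the ETS motif CCGGAAGT was in 1.28% of 10137 windows with kept bases and in 0.502% of 4187 windows of dropped peaks. All motifs were searched on both strands, and a match is a description of the letters, not of binding.

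Bases close to the start of a gene were kept to the largest share. Of the ab7766 bases within 1 kb of the canonical start of a protein-coding gene, 68.2% were kept, against 40.4% between 1 and 10 kb and 28.3% farther away. The share was 69.1% in the first 250 bases and still 61.5% between 1 and 2 kb. It fell to 31.6% between 5 and 10 kb, and beyond 10 kb it stayed between 27.9% and 28.5% in every distance class. The bases beyond 10 kb include a single ab7766 peak of 8101228 bases that was kept nearly whole. Without it 27.5% of distal bases were kept, and the separate distance classes were not recomputed. Distal bases nevertheless made up most of both sets, 72.3% of the kept and 83.9% of the dropped length. The contrast depended on which starts were counted: with the starts of all annotated transcripts, 42.2% of promoter bases and 29.0% of distal bases were kept.

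**Figure D1:**
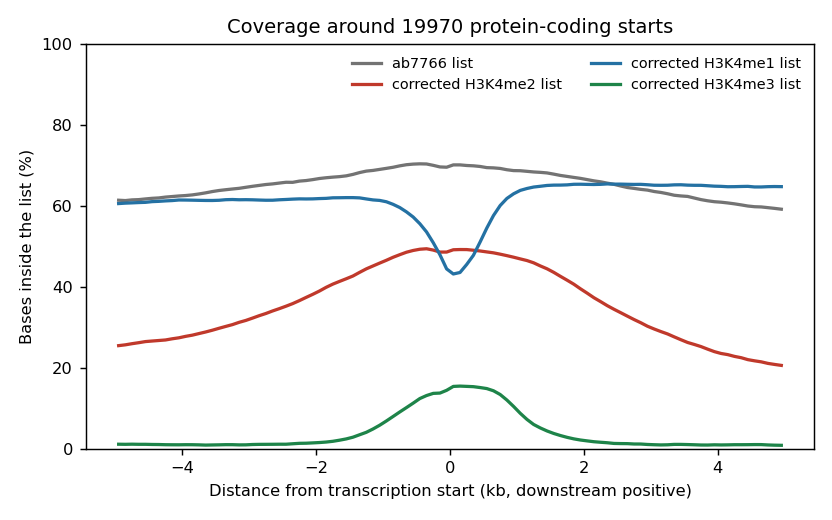
Percent of bases inside 4 peak lists in 100-base steps from 5 kb before to 5 kb after 19970 canonical protein-coding starts. The corrected H3K4me2 curve peaks near the start and falls on both sides, while the ab7766 curve stays near 60 to 70% throughout and the corrected H3K4me1 curve dips at the start.

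Around the starts the ab7766 list was nearly flat and the corrected list was not. About 4950 bases upstream, ab7766 peaks covered 61.4% of bases and corrected peaks 25.5%. Within 1 kb of a start the coverage was 68.6% by ab7766 and 47.0% by the corrected list. By annotation, kept shares differed little between coding exons (29.8%), untranslated exons (33.2%) and introns (28.4%) of protein-coding genes. They were 34.8% outside those genes.

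Most ab7766 peaks disappeared altogether, and those that survived were trimmed. Of 471302 peaks, 68.8% had no kept base, 26.0% were kept in part and 5.22% kept at least 90% of their length. The share with at least 1 kept base was 31.2% over all peaks, 29.9% over distal peaks and 70.8% over the 14324 peaks that reached a promoter. Promoter peaks that survived were split into 2.32 kept pieces on average, against 1.29 for distal peaks. Promoter peaks were far wider, however, with a median of 9012 bases against 692 over all peaks of each class. At like width the order was reversed from 1 kb up. Promoter peaks of 5 to 10 kb had 1.43 pieces and distal ones 1.76, and those of 10 to 20 kb had 1.95 and 2.34. At 20 kb or wider the means were close, 4.22 and 4.27. Within peaks of 2 to 20 kb that kept any base, the middle was kept more than the edges. With each peak divided into 10 equal segments, the fifth segment was kept in 72.9% of its bases at promoters and the first in 32.3%. In distal peaks the same segments were kept in 46.8% and 31.5%.

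Wide peaks kept far more of their length than narrow ones. The share was 16.7% for peaks of 200 to 500 bases, 14.2% for those of 1 to 2 kb, 38.7% for those of 10 to 20 kb and 58.1% for those of at least 20 kb. For peaks of 200 to 500 bases the share was 15.2% at promoters and 16.8% at distal peaks, and for those of at least 20 kb 59.0% and 58.0%. The distal peaks of at least 20 kb include the single peak of 8101228 bases, kept nearly whole. The shares of this width were not computed without it. The gap was widest between 2 and 10 kb: 46.0% of the length of promoter peaks of 5 to 10 kb was kept, against 23.7% for distal peaks of that width.

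The value that the authors gave each peak in column 4 separated the strongest peaks from the rest. It is unnamed in the files and is read here as an apparent density of the modification on the calibrated scale. The ab7766 peaks were ranked by it and divided into 10 classes of equal number. The second to the seventh class kept 12.7% to 14.9% of their length, and the highest, with values above 14.0, kept 47.5%. Value and width ran together, with a median width of 5765 bases in the highest class and 411 to 1224 bases in the others. Among peaks of 1 to 2 kb alone, the first to the seventh class kept 11.2% to 13.2% of their length and the highest 31.0%. The share of these peaks with a kept base was 40.4% in the first class, 27.3% in the seventh and 39.7% in the highest. The lowest, which kept 28.7% of 38.0 Mb, includes 1 peak of 8101228 bases with a value close to 0, which stands in the corrected list with 8100479 bases. Weighted by length, the ab7766 value was 18.8 on kept and 13.8 on dropped bases. The difference was also present within each position class, with 25.5 against 20.5 at promoters and 16.8 against 12.9 at distal bases.

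**Figure D2:**
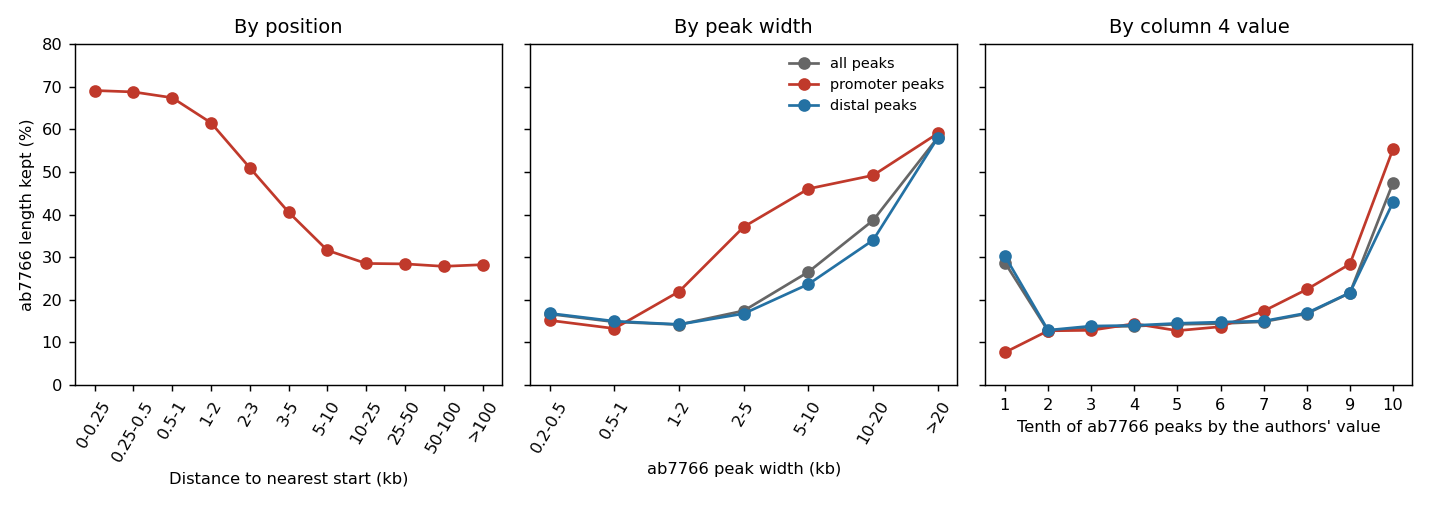
Percent of ab7766 length kept by distance to the nearest protein-coding start, by peak width and by class of the authors' value (10 classes of equal number), for all, promoter and distal peaks. The share falls with distance to about 28%, rises with width to 58.1%, and is nearly level over the values until the highest classes. The first value class and the widest class of distal peaks include the single peak of 8101228 bases, as do the bases beyond 10 kb.

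The correction also changed the values themselves. In 2394 peaks whose borders were identical in both lists, the corrected value was a median of 0.921 times the ab7766 value, with an interquartile range of 0.885 to 0.953. It was higher after correction in 46 of them. In the 35 such peaks at promoters the median ratio was 0.866 and none was higher. Peaks whose borders moved cannot be compared in this way, because a narrower peak averages over other bases. Gained regions were small and mostly distal: of 12956 corrected peaks with no ab7766 base, 11916 were distal and 117 were at promoters, and their median width was 267 bases.

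The other H3K4me2 antibodies serve as a check from lists that did not set the kept and dropped bases. Kept bases had higher ab7766 values (18.8 against 13.8), and a larger share of them lay near starts. The 2 sets were not matched for value, width or position, so a shift does not show that the correction is right. All 3 covered more of the kept than of the dropped bases. Thermo Fisher 710796 covered 73.4% of kept and 33.4% of dropped bases. EMD Millipore 05-1338, a much shorter list, covered 23.3% and 4.02%. Cell Signaling Technologies 9725 covered 94.6% and 91.4%, so its peaks hardly distinguished the 2 sets. The mean difference was 20.8 percentage points (SD 18.4, n = 3 antibodies, exact sign-flip permutation test, two-sided p = 0.25, which is the smallest that 3 antibodies allow; adjusted p = 0.25). In each of the 3 lists the antibody's own value was also higher on kept than on dropped bases, with 22.3 against 17.8, 16.6 against 13.6 and 18.2 against 12.4 for 9725, 05-1338 and 710796. At least 2 of the 3 covered 73.2% of the kept bases (50.0% by exactly 2 and 23.2% by all 3) and 33.3% of the dropped bases (29.9% and 3.41%). A shift of this sign was not confined to H3K4 lists. The H3K27me3 list covered 92.6% of kept and 88.9% of dropped bases, 3.69 points more, against 3.18 points for 9725. At promoter bases the H3K27me3 list covered 83.2% and 66.9%, and it was at 86.2% of kept and 68.6% of lost promoters. The H3K9me3 list covered nearly all of both sets, 99.98% and 99.95% of bases. The H3K4me2 lists were not tested against these lists. The kept bases include nearly all of the single ab7766 peak of 8101228 bases, and no antibody's shift was computed without it.

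Antibodies against the other H3K4 methylation states pointed the same way over bases. The 4 H3K4me1 antibodies outside the correction covered 7.55 to 22.6 percentage points more of the kept than of the dropped bases (mean 14.8, SD 6.25; exact sign-flip permutation test, at the smallest p that 4 antibodies allow, adjusted p = 0.188). Outside the 5-Mb bins of low keeping described further on, the H3K4me1 range was 0.24 to 24.8 points, with Active Motif 39635 at 0.24 in place of 7.55. For the 6 H3K4me3 antibodies outside the correction the range over all bases was 5.18 to 22.2 points (mean 9.66, SD 6.43; exact sign-flip permutation test, p = 0.0313, the smallest possible, adjusted p = 0.0938). None of the 3 pairs of targets differed in this shift past the threshold in exact permutation tests of the difference of means, which gave adjusted p = 0.357 for H3K4me2 against H3K4me3, 0.357 for H3K4me1 against H3K4me3 and 0.629 for H3K4me1 against H3K4me2. As a log2 ratio the order of H3K4me1 and H3K4me3 was reversed, with a difference of -3.39 (H3K4me1 minus H3K4me3, adjusted p = 0.0286, exact permutation test). In 5 of 6 cases the H3K4me3 list covered under 1% of the dropped bases.

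Over promoters 1 of the 3 pairs of targets differed past the threshold, H3K4me1 and H3K4me3. A promoter that kept its H3K4me2 peak was more often in an independent H3K4me3 list than one that lost it, by 31.6 to 49.6 percentage points in the 6 lists (mean 44.1, SD 6.36). The 4 H3K4me1 lists differed by 6.26 to 28.9 points (mean 14.4, SD 10.1), and the 3 H3K4me2 lists by 3.58, 35.4 and 24.1 points (mean 21.0, SD 16.1). The H3K4me1 shift was 29.7 points smaller than the H3K4me3 shift, and the antibodies of the 2 targets did not overlap (exact two-sided permutation test, p = 0.00476, the smallest possible; adjusted p = 0.0286 over 6 tests). The call was lost, with the difference between 26.9 and 34.5 points, when any 1 of the 4 H3K4me1 antibodies was left out (exact permutation test, adjusted p = 0.0714, at the smallest p that 3 against 6 allow). It was also lost without the 2 libraries run beside the AR17 input (27.9 points, exact permutation test, adjusted p = 0.171) and without the libraries of 12 cycles (29.1 points, adjusted p = 0.171). The H3K4me1 lists covered 64.6% to 93.1% of the lost promoters and the H3K4me3 lists 10.1% to 61.0%, so the room for a shift differed. The difference between H3K4me2 and H3K4me3 was 23.1 points (adjusted p = 0.0714, exact permutation test) and did not pass the threshold, nor did that between H3K4me1 and H3K4me2 (adjusted p = 0.617, exact permutation test). Outside the bins of low keeping the H3K4me1 shift was 44.1 points smaller than the H3K4me3 shift (adjusted p = 0.0286, exact permutation test), and that of Active Motif 39635 was 8.91 points in place of 28.9.

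**Figure D3:**
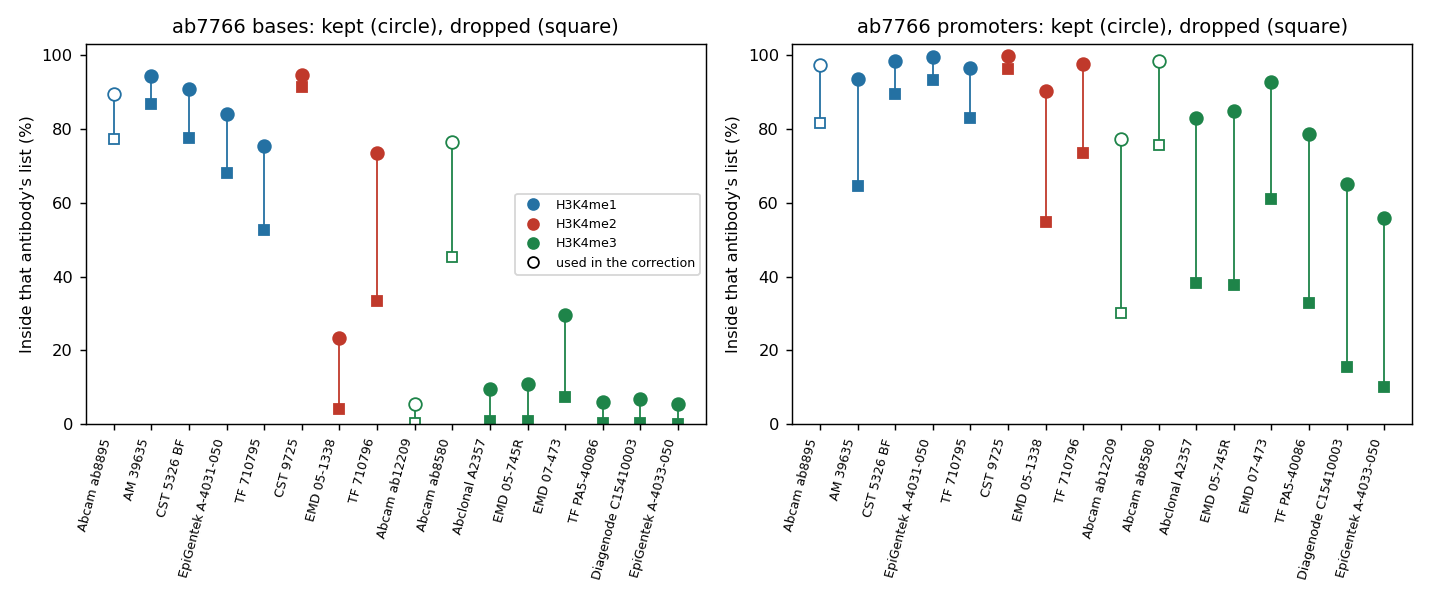
Percent of kept (circles) and dropped (squares) ab7766 bases, left, and promoters, right, inside the list of each of 16 other antibodies, coloured by target; open symbols mark the 3 libraries that entered the correction beside ab7766. Every circle lies above its square, by little for Cell Signaling Technologies 9725 (94.6% against 91.4% of bases) and by much for Thermo Fisher 710796 (73.4% against 33.4%).

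The corrected lists of the other states share source libraries with the corrected H3K4me2 list, so their overlap is given as a description. Corrected H3K4me1 peaks covered 86.8% of kept and 70.8% of dropped bases. Corrected H3K4me3 peaks covered 2.03% and 0.51%, and at promoters 23.7% and 1.21%. At distal bases, the larger part of both sets, they covered 0.401% of kept and 0.483% of dropped bases, the reverse order. In neither of these lists were 12.7% of the kept and 29.2% of the dropped bases.

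Of 19970 protein-coding promoters, taken as 1 kb on either side of the canonical start, 15346 (76.8%) held an ab7766 peak. At least 1 corrected base was kept at 10890 of them (71%). A further 85 promoters gained a corrected peak without an ab7766 base, and at 24 both lists had a peak but shared no base, so that 10999 promoters in all (55.1%) held a corrected peak. Loss was mostly all or none: 8110 promoters kept every covered base, 2780 some and 4456 none. Lost promoters had narrower and weaker source peaks. The median width of the widest ab7766 peak was 5986.5 bases at lost promoters and 13980.5 bases at those that kept a base, and the median of the highest value was 18.2 against 24.5.

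CpG content and the other lists ran parallel to keeping. CpG-rich promoters, with an observed to expected ratio of at least 0.6, kept a corrected base in 78.4% of cases and CpG-poor promoters in 60.2%. The share rose with the number of independent H3K4me3 lists at the promoter, from 33.1% with none to 42.5% with 1, 68.2% with 4 and 94.0% with all 6. It rose as well with the other H3K4me2 lists, from 13.9% with none to 22.0% with 1, 36.8% with 2 and 82.5% with 3. Even so, 2084 of the 4456 lost promoters stood in all 3 of the other H3K4me2 lists.

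Markers of several cell types are given as counts, beside the 71% of all ab7766 promoters that kept a base. Of 15 erythroid marker promoters, 13 held an ab7766 peak and 11 kept it; GATA1 and HBZ lost theirs. Of 4 liver markers with an ab7766 peak only FGB kept it, and neither of the 2 neural markers with one, STMN2 and GFAP, did. Myeloid and lymphoid markers were kept in part, with 4 of 8 myeloid, 4 of 6 T cell and 2 of 4 B cell markers. Counts this small hardly separate the erythroid from the T cell markers, or either from the share over all promoters.

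Gene lists are described by their counts, to be read against the 71% of all ab7766 promoters that kept a base. Among 12 erythroid transcription factors, all with an ab7766 peak, 9 kept it and GATA1, GATA2 and LDB1, which encodes an adaptor that links GATA1 and TAL1 complexes, lost it. NFE2, a factor of globin gene activation, kept all 2001 bases of its window, with an ab7766 value of 45.1 and a corrected value of 55.9. GATA2 kept none although its ab7766 value was higher, 49.3, and its window was in all 3 other H3K4me2 lists.

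Globin promoters were kept in 7 of 8 cases. HBB, HBD, HBG1, HBG2 and HBE1, which encode the beta-type chains, were kept in all their covered bases. At the alpha cluster HBQ1 was kept over its whole window and HBA1 over the 575 bases that ab7766 covered, while HBZ, the embryonic alpha-type chain, lost all 1708. HBA2 and HBM held no ab7766 peak; HBA1 and HBA2, like HBG1 and HBG2, are near-identical copies between which reads may not be placed with certainty.

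Haem synthesis was divided evenly, with 4 of 8 promoters kept. ALAD, UROD and PPOX were among those that kept all 2001 bases. ALAS1, ALAS2, UROS and FECH, which inserts iron into the ring, kept none. ALAS2, the erythroid form of the enzyme that starts the pathway, had an ab7766 value of 23.0, and ALAS1, its counterpart in all cells, 31.1. Every one of the 8 was in all 3 other H3K4me2 lists, so the lists of the independent antibodies did not divide the pathway as the correction did.

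Genes of the red cell membrane and of iron handling were kept in 13 of 14 cases. SLC25A37, which brings iron into mitochondria, kept its whole window with a corrected value of 47.3, and TFRC, the transferrin receptor, with 29.1. SPTB, the beta chain of spectrin, was the exception, with 2001 covered bases and an ab7766 value of 25.5. Megakaryocyte genes were kept in 5 of 7 cases, among them ITGA2B, the platelet integrin subunit. GP9, part of the von Willebrand factor receptor, lost its peak.

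Genes that need no lineage were also split. Housekeeping promoters were kept in 16 of 21 cases. The 5 lost were GAPDH, ACTB, RAB7A, VCP and POLR2A, the last encoding the largest subunit of RNA polymerase II. Cell cycle promoters were kept in 13 of 20 cases. CDC25C, the phosphatase that activates CDK1, kept all 2001 bases with an ab7766 value of 37.0. AURKB, a mitotic kinase, kept none with a higher value of 42.8, and PCNA, MCM2, MCM5, MKI67, TOP2A and CDC25A kept none either. All 20 were in the 3 other H3K4me2 lists.

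Chromatin regulators were nearly all kept. Of the H3K4 methylation writers and erasers, 15 of 16 kept their peak. ASH2L, a core subunit of the methylating complexes, did so with 2001 bases and a corrected value of 39.6. SETD1A, a catalytic subunit, was the 1 loss, with an ab7766 value of 30.6. Of the Polycomb genes 16 of 18 were kept, BMI1 among them, and SUZ12 and RBBP7 were lost. Immediate early genes were kept in 13 of 14 cases, with JUND, an AP-1 subunit, kept at an ab7766 value of 55.7 and IER2 lost. Cytosolic ribosomal protein genes were kept in 61 of 73 cases; RPL36A kept its whole window and RPS15 none.

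Lists of genes of other tissues ranged from well below the 71% background to about that share, and no difference from it was tested. Of the liver list 4 of 15 promoters kept a base, APOA2 over its whole window, and APOB lost 531 covered bases. Of 6 neural promoters OLIG2 alone kept any, 256 of 1436 bases, while SLC17A7 lost all 2001 although it was in all 6 independent H3K4me3 lists. Olfactory receptor promoters were kept in 89 of 233 cases, from OR1F1 with a whole window to OR6K2 with none. The lists between these were lymphoid genes with 11 of 17, myeloid genes with 7 of 13, muscle genes with 7 of 10, a share near the background, and developmental transcription factors with 9 of 17. Their extremes were EBF1, LYZ, TNNI3 and PAX6, each with 2001 bases kept, and RAG2, CEBPA, DES and EN1, each with none. Where each list had to cover at least 0.5 of the window, the share kept was 25.0% for muscle (2 of 8 promoters), 9.09% for liver (1 of 11), 0% for neural (0 of 6) and 21.1% for olfactory receptor genes (28 of 133).

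HOX genes, which set position along the body axis, were kept in 17 of 30 cases and unevenly by cluster. HOXB2, HOXB3, HOXB4, HOXB6, HOXB7 and HOXB9 kept all 2001 bases. In the HOXA cluster only HOXA3 kept any, 242 of 528 bases. HOXC10 lost all 2001 bases, and HOXC6 and HOXC9 in the same cluster kept all of theirs. The zinc finger genes of chromosome 19 were kept in 158 of 212 cases, ZNF584 over its whole window and ZNF808 not at all.

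**Figure D4:**
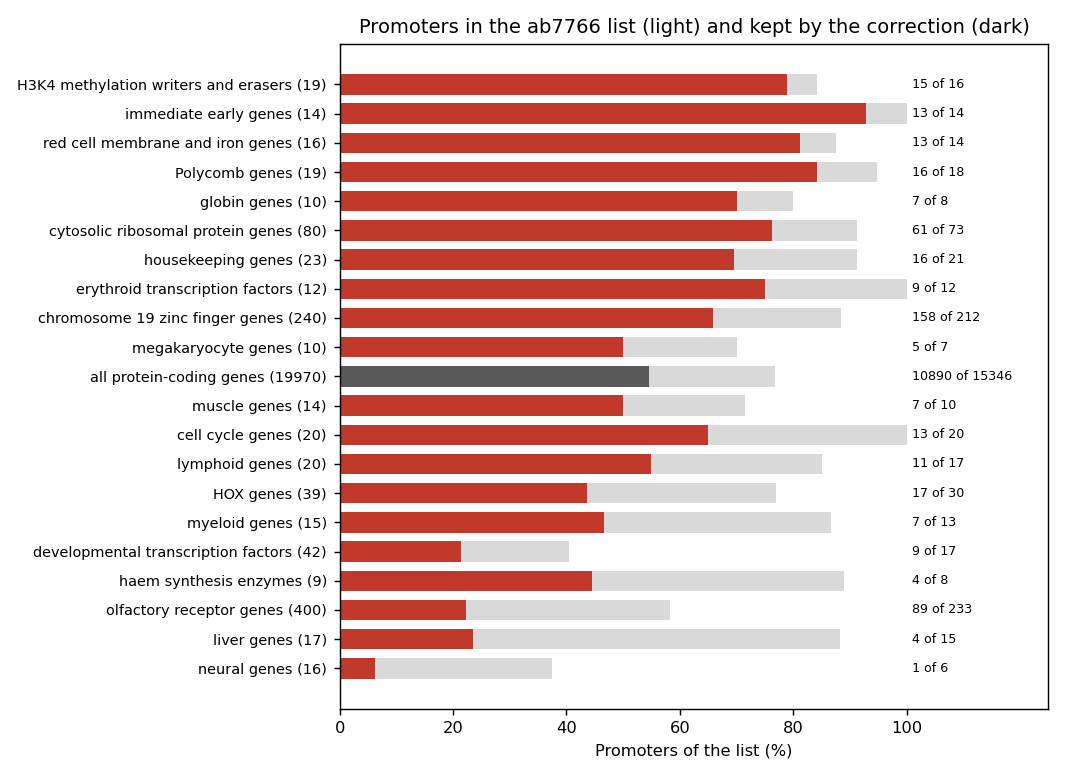
Percent of promoters of each gene list (list size in brackets) in the ab7766 list (light bars) and kept by the correction (dark bars), with the number kept of the number with an ab7766 peak beside each bar. Immediate early genes (13 of 14) and liver genes (4 of 15) lie far apart although most promoters of both lists held an ab7766 peak.

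Known regulatory loci showed the range of outcomes at full length. In the beta-globin cluster with the 25 kb upstream of HBE1 (chr11:5225464-5294945), 98.3% of 67599 ab7766 bases were kept, and 3 ab7766 peaks became 5 corrected peaks. The outer ab7766 peaks had values of 38.7 and 35.8, and the widest corrected peaks 30.3 and 25.7. Around LMO2, a partner of TAL1, 69.4% was kept, around TAL1 68.1%, and across MYB and HBS1L, an interval known for enhancers of MYB, 59.7%. In the interval of NPRL3 and the alpha-globin genes (chr16:85386-181179) 43.9% was kept. At BCL11A, the repressor of fetal globin, 14.7% of the length of 32 ab7766 peaks was kept. Of the 8 corrected peaks there, 2 share no base with ab7766 and make up 425 gained bases.

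GATA1 was the opposite of the beta-globin cluster. A single ab7766 peak of 62039 bases (chrX:48741943-48803981), with a value of 33.0, covered 27392 bases of the gene and its 10 kb flanks, and no base was kept. The other H3K4me2 lists covered 98.4% (9725), 72.9% (05-1338) and 99.1% (710796) of those bases. At TAL1, by contrast, 05-1338 covered 58.7% of the kept and none of the dropped bases.

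The widest domains had the same split. The widest corrected peak that reached a promoter, 79045 bases at the histone gene H4C8, lay in an ab7766 peak of 154109 bases. KLF6 followed with 64156 bases and then C1orf116, PFKFB2 and YOD1, which share a corrected peak of 62009 bases. Among the widest ab7766 peaks at promoters without a corrected base were those at ENTHD1 and GRAP2 (114434 bases, shared), CIROP (99156) and ETV6 (93448 bases), the last encoding an ETS repressor of blood stem cells. CIROP shows that loss was local, since CEBPE, in the same 99156-base peak, kept its whole window.

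Where a promoter lies in the genome went with its fate. The share of ab7766 length kept was 6.11% on chromosome X, 9.87% on 14 and 13.7% on 13, and between 22.9% and 40.3% on the others. Promoters followed: 19.4% of ab7766 promoters on chromosome X, 35.2% on 14 and 32.5% on 13 kept a base, against 86.0% on chromosome 6. Borders also ran within chromosomes. On chromosome 22, 44.3% of the length was kept between 15 and 25 Mb and 6.64% beyond. On chromosome 3, 7.05% was kept between 50 and 135 Mb, against 38.5% before and 34.1% after. The first 25 Mb of chromosome 17 kept 7.25% and the rest 29.3%, and on chromosome 9 the stretch from 65 to 90 Mb kept 3.28% and that from 90 Mb 27.5%. These stretches were chosen after their values were seen.

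To describe this pattern, 548 bins of 5 Mb were classed by their distal bases, and the 150 that kept under 15% of the distal ab7766 length were called low. The limit was set after seeing the data. Of the 45 usable bins on chromosomes 13, 14 and X, 42 were low, and low bins lay on 20 chromosomes. Across the bins the share kept ran with the share of the bin under ab7766 peaks (Spearman rho 0.74, Pearson r 0.72, 548 bins) and against the mean ab7766 value (rho -0.44); the bins share the same 2 lists, so this is a description. Promoter bases did not enter the classing, but distal bases of wide peaks that reach promoters did. The promoter shares come from the same 2 lists and partly restate the classing. Of 2484 ab7766 promoters in low bins 41.2% kept a base, against 77.1% of 12771 in the other bins. The source peaks in low bins were not weaker: the median of the highest ab7766 value was 28.1 there and 22.7 elsewhere. Among these promoters, all of which hold an ab7766 peak, 80.8% in low bins and 76.8% elsewhere were in all 3 other H3K4me2 lists. Over whole bins, however, the coverage by the other lists also ran with the share kept, with rho 0.72 for Thermo Fisher 710796, 0.63 for Cell Signaling Technologies 9725 and 0.29 for EMD Millipore 05-1338. In the stretch of chromosome 3 from 50 to 135 Mb, 9725 covered 21.4% of the bases, against 75.9% before and 56.1% after it, and 710796 covered 5.52%, against 25.6% and 24.0%. Of the ab7766 peaks of at least 20 kb, 58.5% were dropped whole in low bins and 3.23% in other bins; the distal ones among them supplied bases to the classing, so this partly restates it. What sets these regions apart was not tested.

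**Figure D5:**
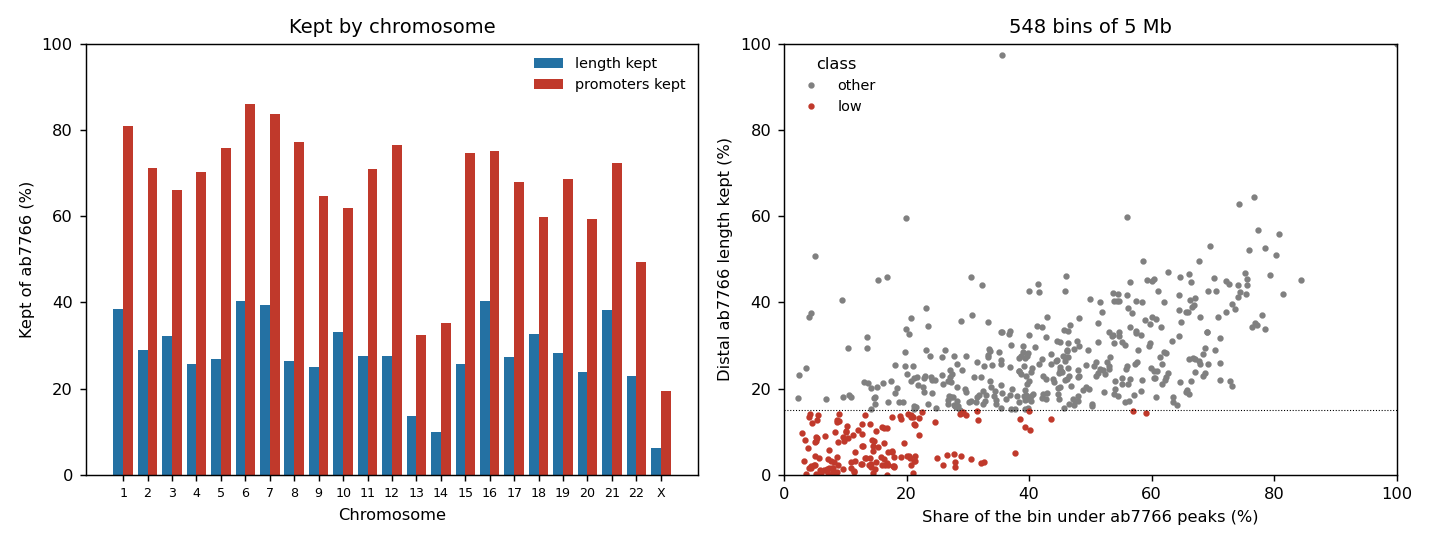
Left, percent of ab7766 length (blue bars) and of ab7766 promoters (red bars) kept on each chromosome; right, percent of distal ab7766 length kept in each of 548 bins of 5 Mb against the share of the bin under ab7766 peaks, with low bins (under 15%) in red. Chromosomes 13, 14 and X are lowest in both measures, and low bins gather where ab7766 peaks cover little of the bin.

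Several of the losses named above lie in such bins. All 3 erythroid factors that lost their peak do, and all 9 factors outside low bins kept theirs. Over all protein-coding genes, 41.2% of ab7766 promoters in low bins kept a base and 76.7% of those outside. The counts of the lists are to be read against these shares, and no difference from them was tested. Low bins also held promoters that were kept, EBF1 among them: 1 of 1 with an ab7766 peak for the H3K4 writers and erasers, the immediate early genes and the myeloid genes, 1 of 2 for the lymphoid and muscle genes and 2 of 9 for the ribosomal protein genes. The 5 cell cycle promoters in low bins were all lost, against 2 of 15 outside, and the 3 housekeeping promoters in low bins were lost against 2 of 18 outside. Haem synthesis changed from 4 of 8 kept to 4 of 5 outside low bins. For the liver list the count was 3 of 12 outside and for the HOX list, with no member in a low bin, 17 of 30. Of the 2084 lost promoters that all 3 other H3K4me2 antibodies listed, 1027 (49.3%) lay in low bins. Of all 4456 lost promoters 1460 (32.8%) did, and of all 15346 ab7766 promoters 2484 did.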

How the data were processed

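K562 chromatin was profiled by internally calibrated ChIP-seq with 17 antibodies against methylated H3K4, and 22 peak lists were used here, 3 of them corrected lists. Samples from mouse cells, like the inputs, were not analysed here. The build GRCh38 (hg38) and the tools MACS2, Bowtie2, bedtools and SAMtools were used, per the submitters' processing notes. Their versions, the peak calling settings and the formula of the correction were not given in the sources used here. A list was deposited for each antibody. Column 4 is a score per peak that the authors deposited without a name; it was read as an apparent modification density, an uncertain reading, and was used within a list. The lists of ab8580, Diagenode C15410003 and EpiGentek A-4033-050 have positions only.

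Interval arithmetic was done in Python 3.11.15 with numpy 2.4.6 and scipy 1.17.1 and was checked base by base on simulated intervals. Promoters were 1 kb either side of canonical starts in GENCODE release 44, distal bases lay over 10 kb from one, and an overlap needed 1 base. A promoter kept its peak when at least 1 base was kept. Sequences came from RefSeq promoters (GRCh38.p14, all 4 genes matched) and from the GRCh38 genome. Shifts between kept and dropped bases were compared over the 13 antibodies outside the correction (4 for H3K4me1, 3 for H3K4me2, 6 for H3K4me3) with exact two-sided permutation tests and Benjamini-Hochberg adjustment over 6 tests between targets and over 3 within; a p-value reflects how antibodies vary on one cell line, with no separate cultures named. No read depth is known. The genes named were those of each list with the highest and the lowest share of covered promoter bases kept, ties going to the higher ab7766 value, the 5 with the widest corrected peak, the 5 with the widest ab7766 peak lost, and 7 fixed loci; some genes that this rule selects are not reported here, and other genes of the lists were named after their values were seen. Members and lists were chosen with earlier results of these data known. Alternatives covered peak values, widths, windows, start sets, chromosomes, libraries and, added after seeing the data, regions of low keeping and the single peak over 1 Mb.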

Additional observations from a re-analysis of the deposited data

Results flagged for a closer look

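EMD Millipore 07-473 stood apart from the other 5 H3K4me3 antibodies outside the correction in both measures. It covered 22.2 percentage points more of the kept than of the dropped bases, where the others covered 5.18 to 9.99 points more. Over promoters its difference was the smallest of the 6, 31.6 points against 44.6 to 49.6. Its list covered 165.5 Mb and the other 5 lists 18.7 to 42.9 Mb, and the part of that length in the result was not tested. Both values come from the same antibody. The H3K4me1 and H3K4me3 antibodies were examined for such a value in both measures, and the limit used is one that chance passes in about 1 in 20 groups.

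The promoter shift differed between H3K4me1 and H3K4me3 antibodies by -29.7 percentage points (H3K4me1 minus H3K4me3; exact permutation test, adjusted p = 0.0286).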

How the results depend on the processing

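The share of ab7766 length kept, 31.4% as reported, was 35.4% for ab7766 peaks at or above the median value, 32.0% without chromosomes 13, 14 and X, 28.1% for corrected peaks of at least 500 bases and 25.3% for corrected peaks at or above their median value. In 2 settings added after seeing the data it was 30.8% without the peak over 1 Mb and 34.0% outside the low bins. Promoter bases were kept at 68.9% and 62.8% with windows of 0.5 and 2.5 kb, at 66.5% from the 5′ ends of genes and at 42.2% from all transcript starts; distal bases at 28.4% and 29.0% with those start sets and at 27.5% without the peak over 1 Mb. The share of ab7766 promoters kept was 68.7% when an overlap of 0.5 of the window was needed, 70.2% and 73.8% with windows of 0.5 and 2.5 kb, 73.0% without chromosomes 13, 14 and X and 76.7% outside the low bins. With the 0.5 overlap, the share kept fell most in the muscle (70.0% to 25.0%), liver (26.7% to 9.09%), neural (16.7% to 0%) and olfactory receptor (38.2% to 21.1%) lists.

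Over bases, the log2 ratio reversed the order of H3K4me1 and H3K4me3 (-3.39) and of H3K4me2 and H3K4me3 (-2.44, adjusted p = 0.0476, exact permutation test); lists that cover little of the dropped bases have large ratios by construction. Over promoters, H3K4me1 against H3K4me2 changed from -6.60 to 0.60 points in the libraries of 8 cycles. H3K4me1 against H3K4me3 lost its call in the AR16 libraries (-27.9) and in those of 8 cycles (-29.1). With all 16 antibodies the H3K4me3 shift over bases passed the threshold, at 11.8 points (adjusted p = 0.0234, exact sign-flip permutation test). That set adds ab12209 (5.06 points) and ab8580 (31.2 points), which entered the correction. Kept and dropped bases were set with these libraries, so the result is not an independent check. Leaving out 1 antibody gave, over bases, -14.8 to 3.56 points for H3K4me1 against H3K4me2, positive only without Thermo Fisher 710796, 2.56 to 7.67 for H3K4me1 against H3K4me3 and 1.59 to 20.0 for H3K4me2 against H3K4me3. Over promoters the ranges were -15.3 to 0.60 (positive only without EMD Millipore 05-1338), -34.5 to -26.9 and -30.3 to -14.3. Within targets they were 12.2 to 17.2 for H3K4me1, 11.3 to 29.6 for H3K4me2 and 7.15 to 10.6 for H3K4me3. No paired analysis was possible because each antibody has 1 library and the labels match no antibodies across targets.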
